A study of Rattus norvegicus with 196 samples.

Results

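The solitary tract nucleus (Nts) was profiled by bulk RNA-seq after chronic fluoxetine (FT) and in untreated controls (Sham). The Nts lies in the dorsal medulla and is the first relay in the brain for taste and for visceral signals carried by the vagus nerve. It holds noradrenergic neurons of the A2 cell group, which make noradrenaline with tyrosine hydroxylase (Th), and it sits beside the dorsal motor nucleus of the vagus and the hypoglossal nucleus, whose neurons are cholinergic. Fluoxetine is a selective serotonin reuptake inhibitor: it blocks the transporter that clears serotonin after release, and the Nts receives serotonergic input and expresses serotonin receptors.

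Of the 196 samples of the series, 8 carry the Nts label, and 6 of them were compared. These were the FT and Sham samples of replicates 1, 4 and 5, grouped by their labels. All animals were male Long-Evans rats, 2 months old when treatment began. FT rats received fluoxetine at 18 mg/kg per day in the drinking water for 6 weeks and Sham rats received water only. Each sample pooled tissue punches from 10 rats, so that the spread between replicates is a spread between pools, and no animal was measured singly. A punch holds neurons, glia, vessels and neighbouring tissue, and in such bulk samples fewer cells of a type and less RNA per cell cannot be told apart. Both libraries of replicate 3 were left out for their count totals, because its Sham library amounted to 4586 counts, spread over 903 transcripts. The FT library of replicate 3 held 4542390 counts, of which 76.1% fell on its 50 most abundant transcripts.

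The 6 libraries held between 5623099 and 22758833 counts. Replicate 1 was the deepest, with 16625729 counts in Sham and 22758833 in FT. Replicate 4 held 8009367 in Sham and 5623099 in FT, and replicate 5 held 9564922 in Sham and 9322710 in FT. Replicate 1 also differed in the share of reads outside annotated transcripts, which was 21.8% in Sham and 21.0% in FT. The other 4 libraries had shares between 34.8% and 40.5%. Between Sham libraries, the chi-square per degree of freedom of the counts was 105 for replicates 1 and 4, 115 for 1 and 5, and 19.5 for 4 and 5. This measure grows with depth, and replicate 1 was the deepest. No library was a near copy of another, since sampling noise alone gives a value near 1.

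The first question was whether the Sham punches carried the profile of the labelled nucleus. Levels are given as CPM, counts scaled to a common library total, after TMM scaling, over the Sham libraries of 25 regions. Glra1, the glycine receptor subunit of brainstem and spinal cord, was at 15.6, 21.2 and 19.5 CPM in Sham replicates 1, 4 and 5. Its mean of 18.8 ± 2.87 (SD, n = 3) was the highest of the 25 regions, with the raphe next at 15.0 and the LC (locus coeruleus) at 12.3. Neither neighbour in that order differed from Nts past the threshold in edgeR (adjusted p = 0.749 for the raphe and 0.143 for the LC). Nefh, the heavy neurofilament of large projection axons, was also highest in Nts at 1122 ± 291 CPM (SD, n = 3), ahead of 769 in the raphe and 656 in the LC. Its Sham libraries lay between 954 and 1458 CPM in Nts and between 466 and 1136 in the raphe. The difference from the raphe missed the threshold in edgeR (adjusted p = 0.422). Slc5a7, the choline transporter of cholinergic neurons, ranked second at 81.1 ± 26.5 CPM (SD, n = 3), behind the PVN (paraventricular nucleus). CAMK2A, a kinase abundant in forebrain excitatory neurons, was lowest of the 25 regions at 4.62 ± 2.96 CPM (SD, n = 3).

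Th was at 18.8, 6.77 and 9.09 CPM in the same Sham libraries, which placed Nts 8th of 25. Its mean was far below those of the VTA (ventral tegmental area) at 322 and the LC at 163 ± 203 (SD, n = 3). Of 24 genes listed as markers of the nucleus and the hindbrain, only Glra1 and Th have an identifier in the name table used here. The remaining 22 were not analysed here. The neighbouring cell types were therefore checked with the remaining lists. The choroid plexus carrier of thyroid hormone, Ttr, was at 656, 8.77 and 55.1 CPM in Sham replicates 1, 4 and 5. Sham replicate 1 thus held many times more of it than the others.

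**Figure D1:**
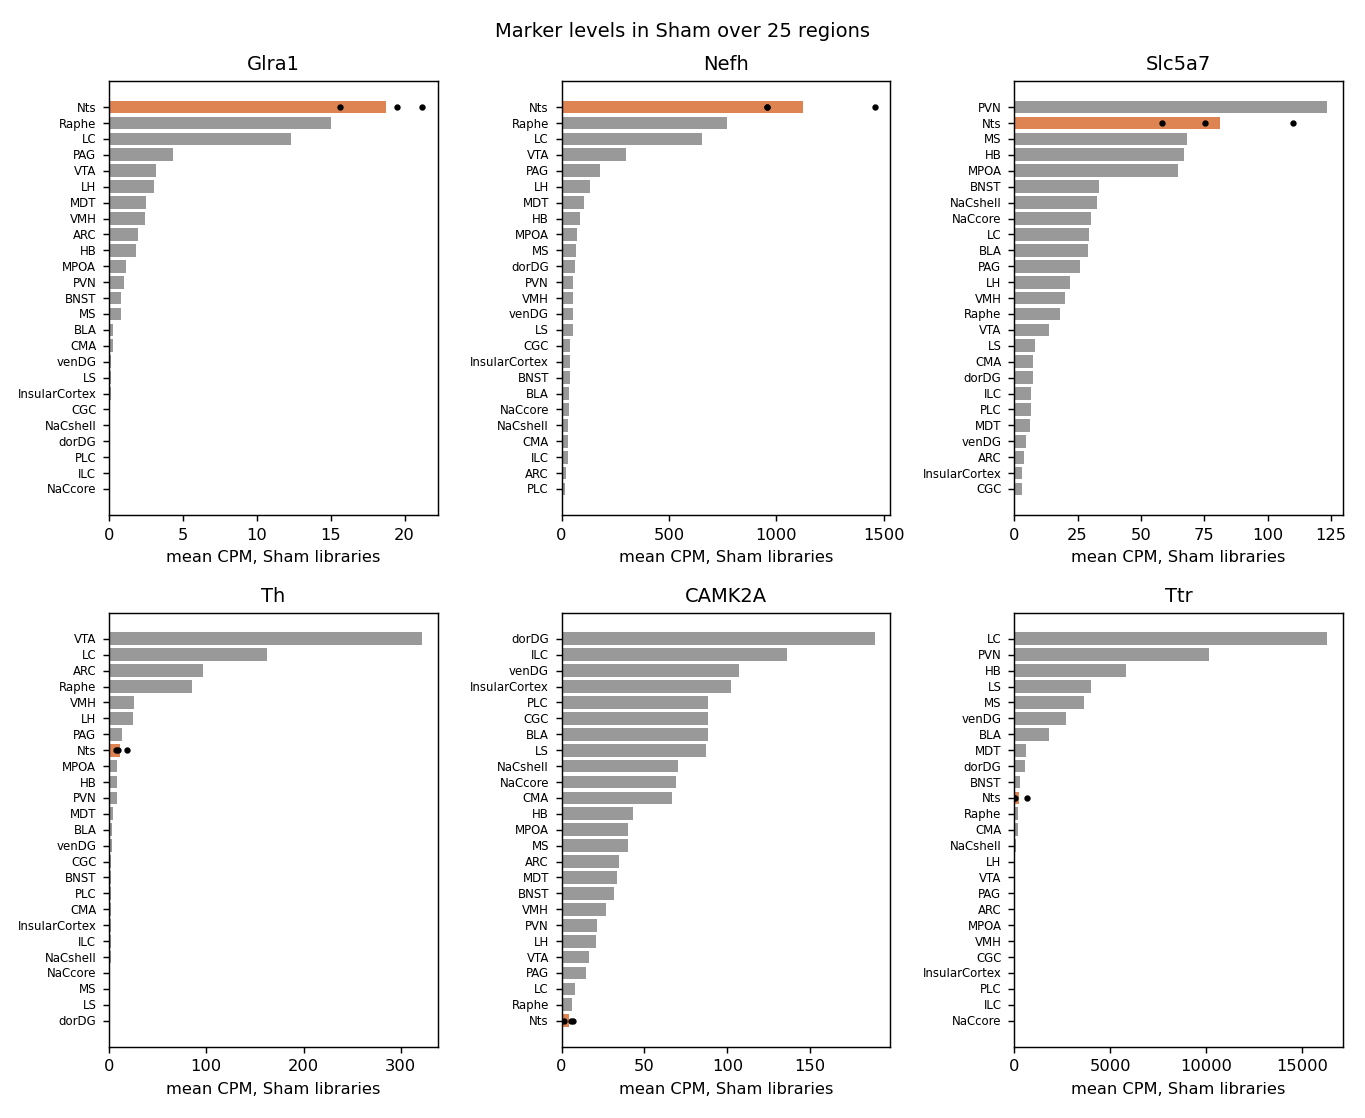
Mean level (CPM, horizontal axis) of 6 marker genes in the Sham libraries of 25 brain regions, each axis starting at 0, with Nts in orange and its 3 Sham libraries as black points. Glra1 and Nefh are highest in Nts, at 18.8 and 1122 CPM, whereas Th ranks 8th and CAMK2A is lowest.

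Against the LC, the other noradrenergic nucleus measured, Nts Sham tissue was richer in myelin genes and poorer in ventricular and cerebellar ones. In edgeR's test of Sham samples, 926 of 14007 transcripts differed (6.61%), of which 304 were higher in Nts (2.17%) and 622 lower (4.44%). Of 14 oligodendrocyte markers, 13 were higher in Nts. The peripheral myelin protein gene Pmp22 was at 158 against 67.5 CPM (log2 difference 1.17, SE 0.13, adjusted p = 0.00073), and Opalin, a membrane protein of oligodendrocytes, at 298 against 135 CPM (1.09, SE 0.14, adjusted p = 0.0015). Of 3 cholinergic and motor neuron markers tested, 2 were higher, Slc5a7 (log2 difference 1.40, SE 0.35, adjusted p = 0.049) and Nefh (0.80, SE 0.19, adjusted p = 0.038). Nefh is not particular to cholinergic neurons. The third, the nicotinic receptor subunit Chrnb2, was not called (-0.07, SE 0.42, adjusted p = 0.952 by edgeR). Of 16 choroid plexus and ependymal markers, 15 were lower in Nts, among them Mfrp at 1.37 against 120 CPM and Krt8 at 1.20 against 27.2 CPM. Of 6 cerebellar granule cell markers, 5 were lower, such as Neurod1 at 4.42 against 57.3 CPM. The LC itself was extreme for such genes. Its Ttr mean of 16326 CPM was the highest of the 25 regions, while Nts ranked 11th at 240. For Gabra6, a cerebellar marker, the LC at 36.2 CPM was exceeded only by the PAG (periaqueductal gray), and Nts ranked 3rd at 2.54. Being poorer in these genes is thus relative to the LC and not a trait of Nts among the regions. Th (log2 difference -3.07, SE 0.74, adjusted p = 0.041) and the neuropeptide Gal (-3.47, SE 0.38, adjusted p = 0.00057) were lower as well. Several LC means vary widely between libraries, with an SD of 203 CPM for Th, 106 for Mfrp and 55.9 for Neurod1. Gal was between 33.2 and 369 CPM in the LC libraries. The count of 926 transcripts depends on the libraries, at 271 without replicate 4 and 1729 without replicate 1. The 304 higher in Nts became 22 without replicate 4 and 89 without replicate 5. Without the replicate block 8 were higher and 133 lower, so not all 13 oligodendrocyte markers were called there.

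Against the raphe, 68 of 14007 transcripts differed (0.485%), 11 of them higher in Nts (0.0785%) and 57 lower (0.407%). The 3 named transcripts higher in Nts were Slc5a7, at 81.1 against 18.2 CPM (log2 difference 2.27, SE 0.36, adjusted p = 0.025), Kcnab3, a potassium channel subunit, at 38.6 against 16.2 CPM (1.24, SE 0.16, adjusted p = 0.0097), and Fxyd7, a regulator of the sodium pump, at 43.2 against 19.2 CPM (1.45, SE 0.26, adjusted p = 0.057). Of the 9 named transcripts lower in Nts, the lead was Gchfr, a regulator of the enzyme that makes the cofactor for serotonin and catecholamine synthesis, at 17.4 against 118 CPM (-2.94, SE 0.23, adjusted p = 0.00042). Gad2, a GABA-synthesizing enzyme, was at 27.4 against 65.8 CPM (-1.29, SE 0.18, adjusted p = 0.014). The count of 68 was 15 without replicate 4 (2 higher) and 159 without replicate 1 (37 higher). Without the replicate block it was 8, with 0 higher. Kcnab3 was highest of the 25 regions in Nts, and its 3 Sham libraries lay between 37.3 and 41.0 CPM.

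The second question was how FT differed from Sham in Nts. A transcript counted as a DEG when its log2 fold change (log2FC) was 0.32 or more in size and its p, adjusted by the Benjamini-Hochberg method, was 0.1 or less. With 3 pairs and the replicate as a block, edgeR's quasi-likelihood test called 0 of 12953 transcripts (0%), in neither direction, and the smallest adjusted p was 0.248. At an unadjusted p under 0.05 there were 1674 transcripts (12.9%), 723 with a higher level (5.58%) and 951 with a lower one (7.34%). DESeq2 with the same block called 395 of 11003 transcripts with an adjusted p (3.59%), 228 higher (2.07%) and 167 lower (1.52%). It called 18 of 2732 without replicate 4, 48 of 2589 without replicate 5, and 1809 of 11754 (15.4%) without replicate 1, of which 9.11% were higher and 6.28% lower. In edgeR, the number called was 4337 without replicate 1 (33%), 0 without replicate 4 and 1 without replicate 5. FT libraries all lay above all Sham libraries for 762 transcripts (5.88%) and all below for 741 (5.72%). Every gene of the following paragraphs therefore missed the threshold in edgeR, and DESeq2 calls are given as calls of that tool alone. Of 83 tested genes named by rule or chosen later, edgeR without replicate 1 called 69. That fit called 41% of all named transcripts higher and 30.2% lower. Many of the 83 were picked for a small p in the fit of 3 pairs, which shares replicates 4 and 5.

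The pairs themselves differed. Across 12953 transcripts, the log2 ratio of FT to Sham in pair 4 correlated with that in pair 5 at r = 0.67, and 74.8% of transcripts had the same sign. The ratio in pair 1 had r = -0.02 with pair 4 and -0.11 with pair 5, and shared the sign for 50.2% and 47.1% of transcripts. Transcripts share a library and are not replicates, so these values carry no p. The ratios had an SD of 0.74 in pair 1, 0.78 in pair 4 and 0.65 in pair 5 on the log2 scale. FT was above Sham in all 3 pairs for 2132 transcripts (16.5%) and below in all 3 for 2544 (19.6%). Of the 4202 transcripts called without replicate 1 that were also tested with it, 48.5% had the same sign in pair 1.

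**Figure D2:**
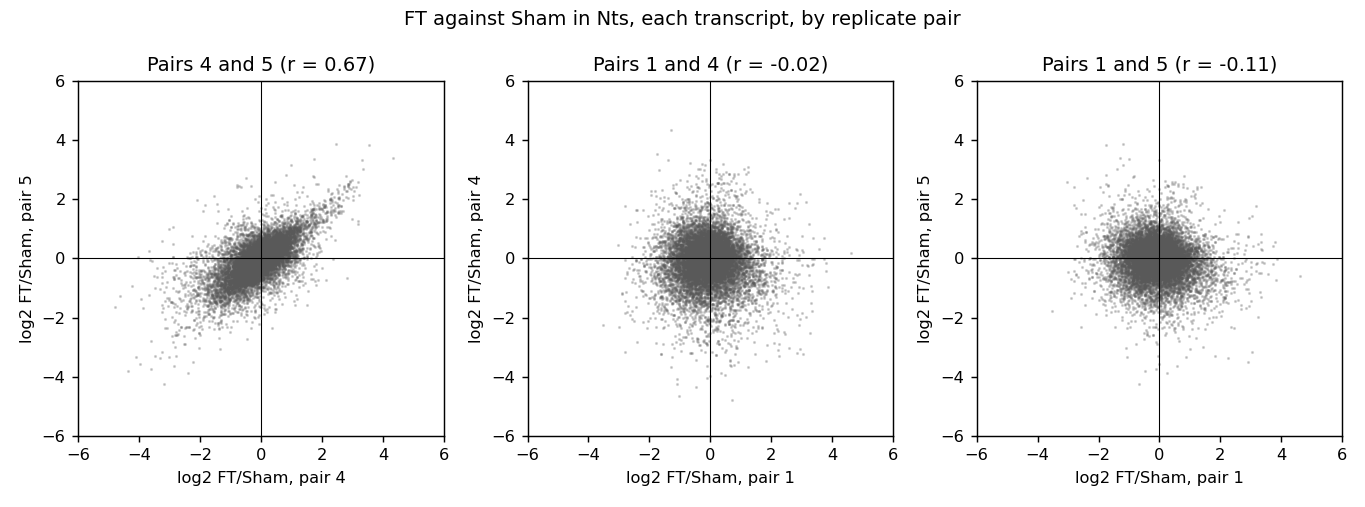
Log2 ratio of FT to Sham for each of 12953 transcripts (points), with the replicate pairs plotted against each other in 3 panels on the same scale. The points of pairs 4 and 5 form a rising cloud (r = 0.67), while those of pair 1 against either show none (r = -0.02 and -0.11).

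Gene names were available for 1844 transcripts, of which 1807 were tested. The study had called each of them in several regions, so their calls are not independent evidence. By DESeq2, 301 named transcripts were called (16.7%), 191 higher (10.6%) and 110 lower (6.09%). At an unadjusted p under 0.05 there were 639 (35.4%), 344 higher (19%) and 295 lower (16.3%). FT was above Sham in all 3 pairs for 21.7% of named transcripts and below for 20.2%, and the libraries did not overlap for 9.63% above and 8.08% below. Without replicate 1, edgeR called 740 named transcripts higher (41%) and 545 lower (30.2%), beside 15.6% and 17.3% of all transcripts. The counts of the following lists are read against these shares. The median log2FC was 0.02 over named transcripts and -0.03 over all. By pair, the median of named transcripts was -0.14 in pair 1, 0.09 in pair 4 and 0.28 in pair 5. Without replicate 1 it was 0.21. Over all transcripts the pair medians were -0.04, -0.04 and -0.01. List medians by pair are read against those of named transcripts, so a sign alone can repeat the shift of all named transcripts.

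The nuclear genes of mitochondria had higher values in FT in pairs 4 and 5 and a median below 0 in pair 1. Of 32 transcripts of respiratory chain subunits, which build the complexes of oxidative phosphorylation, 26 had a log2FC above 0, with a median of 0.44. The median was 0.81 in pair 4, 0.78 in pair 5 and -0.32 in pair 1. Only 5 were higher in all 3 pairs and 2 lower. DESeq2 called 3 higher and 0 lower, and edgeR without replicate 1 called 24 higher and 1 lower. Atp5f1, a subunit of ATP synthase, was at 356, 323 and 255 CPM in Sham replicates 1, 4 and 5 and at 521, 503 and 476 in FT. Its groups did not overlap (log2FC 0.70, SE 0.16, adjusted p = 0.253 by edgeR and 0.054 by DESeq2). Uqcrfs1, the iron-sulfur protein of complex III, was at 122, 78.7 and 81.2 CPM in Sham and 158, 151 and 127 in FT, again without overlap (log2FC 0.65, SE 0.17, adjusted p = 0.253 by edgeR). The most abundant member, Atp5i, went opposite ways, from 1571 to 841 CPM in pair 1 and from 299 to 1135 and 364 to 1007 in pairs 4 and 5.

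The same held for mitochondrial ribosomal proteins and import factors, which translate the mitochondrial genome and bring proteins in. Of 34 transcripts, 27 had a log2FC above 0, with a median of 0.40. The median was -0.28 in pair 1, 0.72 in pair 4 and 0.80 in pair 5. In all 3 pairs 10 were higher and 3 lower. DESeq2 called 6 higher and 1 lower, and edgeR without replicate 1 called 26 higher and 3 lower. Mrpl51 was at 54.7, 207 and 191 CPM in Sham and at 128, 1585 and 973 in FT. FT exceeded Sham in each pair, but FT replicate 1 lay below Sham replicates 4 and 5 (log2FC 2.18, SE 0.35, adjusted p = 0.248 by edgeR and 3e-09 by DESeq2). Mrpl15 was tighter, at 58.4, 50.9 and 50.5 CPM in Sham and 96.1, 108 and 107 in FT, without overlap (log2FC 0.96, SE 0.15, adjusted p = 0.248 by edgeR and 0.0056 by DESeq2).

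The 8 transcripts encoded by the mitochondrial genome itself had a median log2FC of -0.19, at 0.40 in pair 1, -0.16 in pair 4 and -0.63 in pair 5. Their summed level, as CPM of the library total, was 50991 in Sham replicate 1 and 63955 in FT, against 42388 and 29887 in replicate 4 and 49552 and 32615 in replicate 5. MT-ATP8, an ATP synthase subunit, was 1 of 2 with a log2FC above 0 and was higher in all 3 pairs, at 226, 242 and 505 CPM in Sham and 338, 1182 and 1175 in FT (log2FC 1.36, SE 0.34, adjusted p = 0.253 by edgeR and 0.0008 by DESeq2). ND3, a complex I subunit, was far higher in both libraries of replicate 1, at 2542, 206 and 272 CPM in Sham and 1427, 214 and 219 in FT (log2FC -0.36, SE 0.22, adjusted p = 0.546).

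Cytosolic ribosomal proteins had lower values in FT in every pair, by their median. Of 26 transcripts tested, 23 had a log2FC below 0, with a median of -0.54. The median was -0.72 in pair 1, -0.31 in pair 4 and -0.36 in pair 5, and 16 were lower and 0 higher in all 3 pairs. DESeq2 called 4 lower and 0 higher. Without replicate 1, edgeR called 14 lower and 4 higher. Rpl14, of the large subunit, was at 365, 291 and 278 CPM in Sham and at 230, 110 and 109 in FT, with no overlap (log2FC -1.14, SE 0.20, adjusted p = 0.248 by edgeR and 0.0013 by DESeq2). Rpl18 was at 299, 166 and 140 CPM in Sham and at 121, 102 and 67.4 in FT, also without overlap (log2FC -1.02, SE 0.17, adjusted p = 0.248 by edgeR and 0.0045 by DESeq2). Their most abundant member, Rps14, was among the exceptions, being lower in pair 1 (1737 to 1293 CPM) and higher in pairs 4 and 5 (551 to 840 and 520 to 815).

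**Figure D3:**
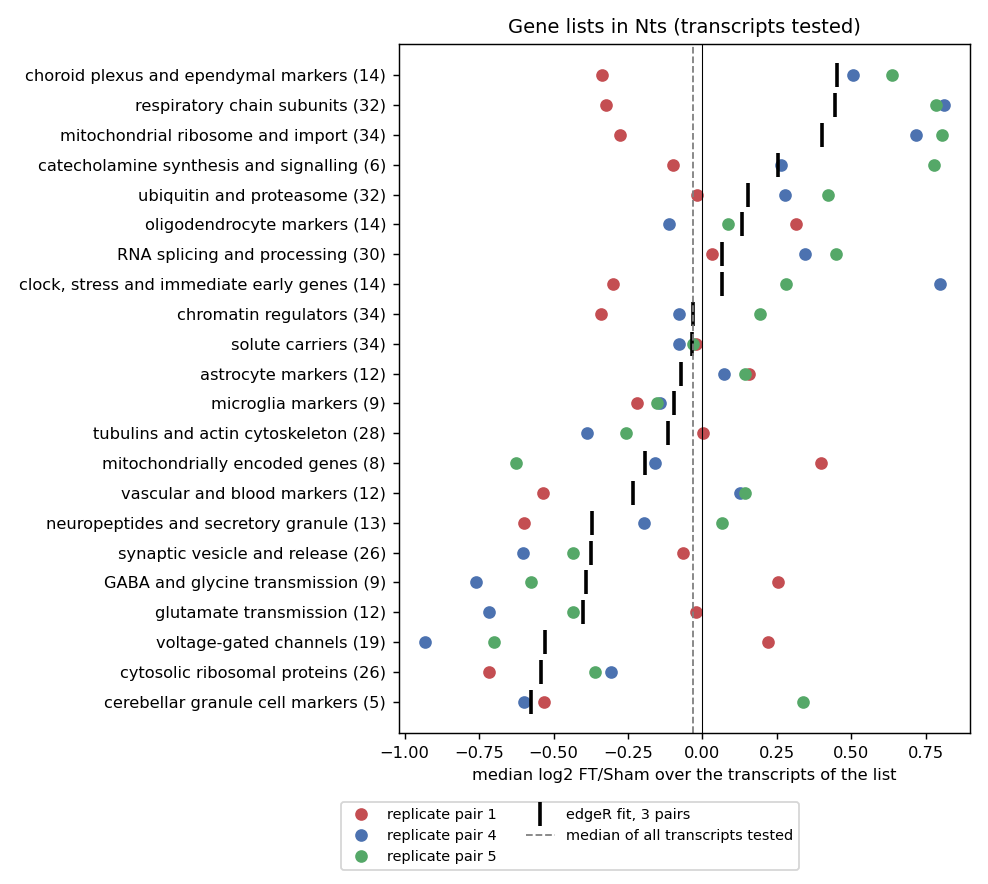
Median log2 ratio of FT to Sham (horizontal axis) over the transcripts of each gene list with 5 or more transcripts tested, for replicate pairs 1, 4 and 5 (coloured points) and for the edgeR fit of 3 pairs (bars), with the number tested in brackets and the median of all transcripts as a dashed line. Both lists of nuclear mitochondrial genes lie above 0 in pairs 4 and 5 and below in pair 1, while cytosolic ribosomal proteins lie below 0 in all 3. Named transcripts, not drawn, had medians of -0.14, 0.09 and 0.28 in pairs 1, 4 and 5.

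Genes of synapses, channels and fast transmitters had medians below 0 in pairs 4 and 5. Of 26 transcripts of synaptic vesicles and release, 19 had a log2FC below 0, with a median of -0.37. The median was -0.07 in pair 1, -0.60 in pair 4 and -0.43 in pair 5. In all 3 pairs 9 were lower and 3 higher, and DESeq2 called 6 lower and 0 higher. Without replicate 1, edgeR called 14 lower and 4 higher. Cplx2, a complexin that clamps and triggers vesicle fusion, was at 30.0, 14.9 and 13.3 CPM in Sham and 10.3, 4.74 and 5.88 in FT, without overlap (log2FC -1.45, SE 0.22, adjusted p = 0.248 by edgeR and 0.0041 by DESeq2). Apba2, an adaptor of the presynaptic terminal, was at 49.4, 51.1 and 44.5 CPM in Sham and 31.0, 28.1 and 23.2 in FT, without overlap (log2FC -0.82, SE 0.16, adjusted p = 0.248 by edgeR and 0.087 by DESeq2). The vesicle protein Syp, the most abundant of the list, gave no such difference (log2FC 0.06, SE 0.22, adjusted p = 0.942).

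Of 19 voltage-gated channel transcripts, 12 had a log2FC below 0, with a median of -0.53. The median was 0.22 in pair 1, -0.93 in pair 4 and -0.70 in pair 5. DESeq2 called 3 lower and 1 higher, and edgeR without replicate 1 called 10 lower and 5 higher. Hcn2, a pacemaker channel opened by hyperpolarization, was at 32.0, 20.0 and 21.6 CPM in Sham and at 15.4, 7.89 and 7.87 in FT, without overlap (log2FC -1.27, SE 0.20, adjusted p = 0.248 by edgeR and 0.0082 by DESeq2). Cacnb3, a calcium channel subunit, was at 19.1, 9.14 and 8.74 CPM in Sham and 8.30, 4.56 and 5.68 in FT, without overlap (log2FC -0.95, SE 0.25, adjusted p = 0.257 by edgeR). Scn4b, a sodium channel subunit, had its highest Sham mean of the 25 regions in Nts, not past the threshold against the raphe (adjusted p = 0.434 by edgeR). Scn4b was at 146, 245 and 215 CPM in Sham and at 126, 152 and 121 in FT. It was lower in each pair, but the groups overlapped (log2FC -0.58, SE 0.18, adjusted p = 0.289).

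Among 12 glutamate transmission transcripts 10 had a log2FC below 0 (median -0.40), and among 9 of GABA and glycine transmission 8 did (median -0.39). The glutamate median was -0.02 in pair 1, -0.72 in pair 4 and -0.43 in pair 5, and 4 of 12 were lower in all 3 pairs. The GABA and glycine median was 0.25 in pair 1, where 6 of 9 were higher, against -0.76 and -0.58 in pairs 4 and 5, and 2 of 9 were lower in all 3 pairs. Without replicate 1 this median was -0.70. In that fit edgeR called 6 of the glutamate list and 6 of the GABA and glycine list lower, and 0 of either higher. Over 3 pairs, DESeq2 called 1 of the first list, lower, and 0 of the other. That one was Dlg4, the postsynaptic scaffold PSD-95, at 5.17, 18.5 and 13.9 CPM in Sham and 3.21, 3.33 and 4.38 in FT, without overlap (log2FC -1.57, SE 0.39, adjusted p = 0.253 by edgeR and 0.03 by DESeq2). Nptxr, a neuronal pentraxin receptor, had a log2FC of -0.41 (SE 0.16, adjusted p = 0.372) and Gabra3, a GABA-A receptor subunit, one of -0.56 (SE 0.29, adjusted p = 0.484). Glra1, whose Sham mean was highest in Nts, was at 14.7, 21.6 and 19.4 CPM in Sham and 5.55, 11.6 and 12.9 in FT. All FT libraries lay below all Sham libraries (log2FC -0.96, SE 0.24, adjusted p = 0.253 by edgeR and 0.147 by DESeq2). Without replicate 1 its log2FC was -0.72 (adjusted p = 0.0122 by edgeR), and DESeq2 did not call it there (-0.71, adjusted p = 0.19).

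None of the genes of the monoamine systems passed the test over 3 pairs in edgeR or DESeq2, and 3 were called without replicate 1. Th was at 17.7, 6.89 and 9.03 CPM in Sham and 18.9, 7.54 and 6.97 in FT (log2FC -0.05, SE 0.24, adjusted p = 0.958). Of 7 catecholamine genes with an identifier, 6 were tested and 5 had a log2FC above 0, with a median of 0.26. Gchfr was at 29.4, 9.82 and 11.3 CPM in Sham and 31.8, 19.8 and 20.7 in FT, higher in each pair (log2FC 0.65, SE 0.24, adjusted p = 0.36). The enzymes that make or regenerate its cofactor, tetrahydrobiopterin, gave a log2FC of 0.32 for Spr (SE 0.43, adjusted p = 0.812), 0.30 for Pts (SE 0.27, adjusted p = 0.701) and 0.21 for Qdpr (SE 0.22, adjusted p = 0.745). In edgeR without replicate 5 these values were -0.02 for Spr, -0.02 for Pts and 0.001 for Qdpr. Without replicate 1, edgeR called 3 of the 6 tested, all higher: Gchfr (log2FC 0.94, adjusted p = 0.00269), Spr (0.99, adjusted p = 0.000757) and Qdpr (0.45, adjusted p = 0.017). DESeq2 called the same 3 without that replicate. Spr and Qdpr were lower in FT in pair 1, at 58.3 to 29.7 and 989 to 833 CPM. The dopamine receptor DRD2 gave 0.01 (SE 0.23, adjusted p = 0.986), and the dopamine transporter Slc6a3 had at most 14 counts in a library and did not pass the filter. Of 20 serotonin genes listed, only the receptor Htr1a has an identifier. It held 2, 12 and 7 counts in Sham and 6, 1 and 0 in FT, under the filter on low counts. In the fit without that filter its log2FC was -1.59 (SE 1.27, adjusted p = 0.897 by edgeR), so no difference was detectable at this depth.

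Neuropeptide and secretory granule genes had a median log2FC of -0.37 over 13 tested of 20 with an identifier, and DESeq2 called 0 of them. Cga, under the filter on low counts, held 0, 2 and 0 counts in Sham and 0, 24 and 33 in FT. In the fit without that filter it was called higher (log2FC 4.99, SE 1.08, adjusted p = 0.06 by edgeR). Avp, Oxt, Npvf, Hcrt, Rln3 and Ucn, also under the filter, were not called there (adjusted p of 0.897 or more by edgeR). The pair medians were -0.60, -0.20 and 0.07 in pairs 1, 4 and 5, with 8 of 13 higher in pair 5. The value in pair 5 lay below the 0.28 of named transcripts. Without replicate 1 the list median was 0.05, below the 0.21 of named transcripts, and edgeR called 2 higher and 4 lower. Chga, a granule protein, was at 60.6, 54.3 and 39.2 CPM in Sham and 40.0, 26.8 and 24.0 in FT, lower in each pair with a narrow overlap (log2FC -0.77, SE 0.16, adjusted p = 0.248). Pcsk2, a convertase that cuts prohormones, was at 42.5, 47.0 and 42.9 CPM in Sham and 28.7, 28.9 and 24.5 in FT, without overlap (log2FC -0.69, SE 0.16, adjusted p = 0.248).

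Regulators of protein turnover, chromatin and RNA had values on both sides. Of 32 ubiquitin and proteasome transcripts, DESeq2 called 7 higher and 1 lower, with a median log2FC of 0.15 in edgeR. The ubiquitin gene UBB was at 6175, 7960 and 7068 CPM in Sham and 9340, 16186 and 14585 in FT, without overlap (log2FC 0.89, SE 0.23, adjusted p = 0.253 by edgeR and 0.0049 by DESeq2). Uba6, a ubiquitin-activating enzyme, was at 57.0, 160 and 146 CPM in Sham and 104, 685 and 504 in FT, higher in each pair but overlapping through FT replicate 1 (log2FC 1.59, SE 0.27, adjusted p = 0.248 by edgeR and 3.4e-06 by DESeq2). Ube2o, a ubiquitin-conjugating enzyme, went the other way, at 24.1, 15.7 and 16.4 CPM in Sham and 10.0, 7.37 and 7.07 in FT, without overlap (log2FC -1.19, SE 0.21, adjusted p = 0.248 by edgeR and 0.03 by DESeq2).

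Of 34 chromatin regulators, DESeq2 called 5 higher and 5 lower, and 13 were lower and 4 higher in all 3 pairs. Ehmt2, a histone H3 lysine methyltransferase, was at 48.0, 36.5 and 22.8 CPM in Sham and 19.8, 17.7 and 13.6 in FT, without overlap (log2FC -1.02, SE 0.19, adjusted p = 0.248 by edgeR and 0.032 by DESeq2). Baz2a, of a nucleolar remodelling complex, was at 7.47, 14.6 and 13.4 CPM in Sham and 3.10, 4.21 and 4.38 in FT, without overlap (log2FC -1.55, SE 0.27, adjusted p = 0.248 by edgeR and 0.013 by DESeq2). Trim28, a corepressor, was lower in pair 1 (103 to 90.1 CPM) and higher in pairs 4 and 5 (74.1 to 252 and 74.8 to 211). Of 30 splicing and RNA processing transcripts, DESeq2 called 6 higher and 0 lower, led by Rbm7 (log2FC 1.29, SE 0.24, adjusted p = 0.248 by edgeR and 0.0021 by DESeq2) and Srsf3 (0.89, SE 0.18, adjusted p = 0.248 by edgeR and 0.0095 by DESeq2). The median log2FC of this list was 0.07, with 17 above 0 and 13 below. In all 3 pairs 9 were higher and 6 lower, and edgeR without replicate 1 called 16 higher and 10 lower.

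Of 28 tubulin and actin cytoskeleton transcripts, DESeq2 called 2 higher and 4 lower. Stmn3, which binds tubulin in neurons, was at 1217, 649 and 424 CPM in Sham and 532, 294 and 229 in FT, lower in each pair with overlap (log2FC -1.08, SE 0.17, adjusted p = 0.248 by edgeR and 0.00042 by DESeq2). With all 8 libraries its log2FC was -0.57 in edgeR (adjusted p = 0.706) and -0.51 in DESeq2 (adjusted p = 0.652), called by neither. Vcl, which links actin to adhesion sites, was at 71.1, 260 and 218 CPM in Sham and 134, 1899 and 1136 in FT, higher in each pair with overlap (log2FC 2.07, SE 0.40, adjusted p = 0.248 by edgeR and 1.3e-07 by DESeq2). Of 34 solute carriers, 1 was called higher and 4 lower by DESeq2, with a median log2FC of -0.03. The lysosomal carrier Slc7a14 was at 43.8, 46.6 and 39.8 CPM in Sham and 24.7, 16.5 and 15.0 in FT, without overlap (log2FC -1.23, SE 0.20, adjusted p = 0.248 by edgeR and 0.0035 by DESeq2). The mitochondrial carrier Slc25a42 gave a log2FC of -1.02 (SE 0.25, adjusted p = 0.253 by edgeR).

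Among 14 clock, stress and immediate early genes, DESeq2 called 2 higher and 1 lower. DEPP, a target of progesterone and of FOXO factors, was at 2.09, 5.53 and 6.18 CPM in Sham and 9.77, 17.9 and 19.8 in FT, without overlap (log2FC 1.85, SE 0.25, adjusted p = 0.248 by edgeR and 0.00013 by DESeq2). Tsc22d2, a leucine zipper gene, was at 33.4, 75.3 and 65.5 CPM in Sham and 72.6, 430 and 316 in FT (log2FC 1.98, SE 0.30, adjusted p = 0.248 by edgeR and 1.5e-08 by DESeq2). Mt3, a metallothionein of the brain, was at 3695, 1160 and 1328 CPM in Sham and 1880, 598 and 625 in FT (log2FC -1.01, SE 0.17, adjusted p = 0.248 by edgeR and 0.00099 by DESeq2). Dbp, a clock output factor, was lower in pair 1 (95.6 to 61.3 CPM) and higher in pairs 4 and 5 (49.6 to 140 and 47.8 to 116). Fos, the activity marker, gave a log2FC of 0.04 (SE 0.24, adjusted p = 0.959).

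**Figure D4:**
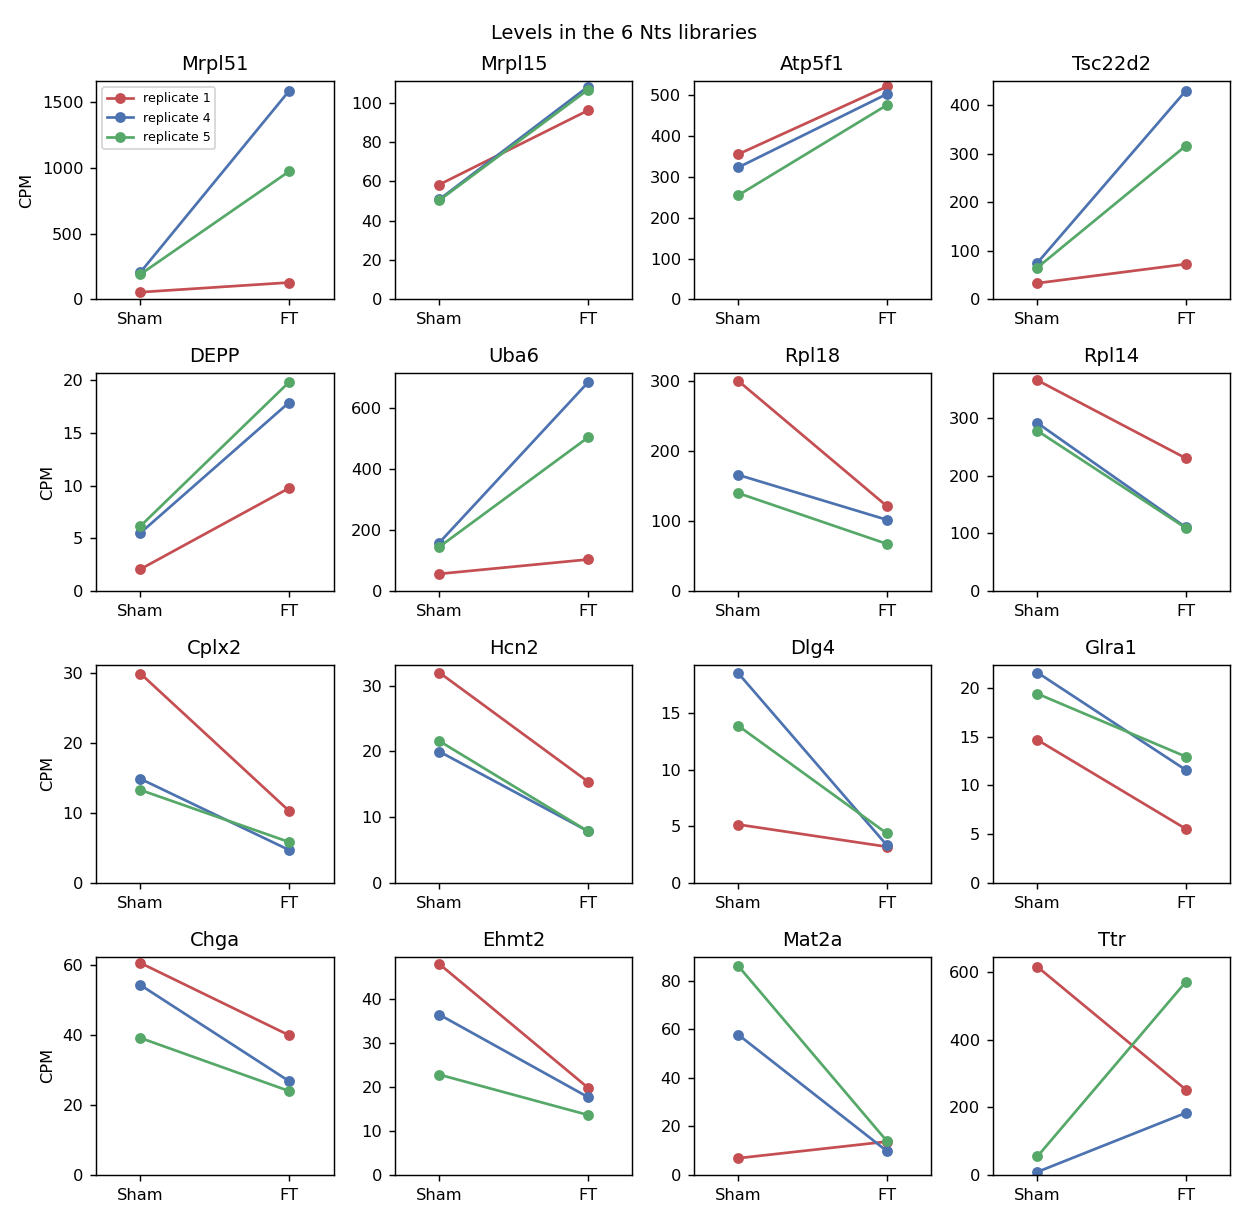
Level (CPM after TMM scaling, vertical axes from 0) of 16 genes in the 6 Nts libraries, with lines joining the Sham and FT library of a replicate. FT lies on one side of Sham in all 3 pairs for 14 of the genes, and replicate 1 runs against the others for Mat2a and Ttr.

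Of 5 genes fixed by name, Otub1, a deubiquitinase, was higher in FT in all 3 pairs, at 853, 528 and 389 CPM in Sham and 1088, 1835 and 1247 in FT (log2FC 1.28, SE 0.32, adjusted p = 0.253 by edgeR and 0.0011 by DESeq2). Napb, which recycles SNARE complexes, was lower in all 3, at 6.49, 31.9 and 33.5 CPM in Sham and 5.75, 5.61 and 10.8 in FT (log2FC -1.42, SE 0.45, adjusted p = 0.3 by edgeR and 0.038 by DESeq2). Mat2a, which makes S-adenosylmethionine, was at 6.91, 57.8 and 86.1 CPM in Sham and 13.7, 9.82 and 13.9 in FT. Its Sham level in replicate 1 was below every FT level (log2FC -1.49, SE 0.78, adjusted p = 0.484). It was called without replicate 1 (log2FC -2.59, adjusted p = 1.1e-07 by edgeR). Cds2, an enzyme of phospholipid synthesis, was higher in FT in pair 1 and lower in pairs 4 and 5, at 0.559, 5.64 and 6.46 CPM in Sham and 2.44, 0.351 and 0.498 in FT (log2FC -1.70, SE 1.33, adjusted p = 0.644). Without replicate 1 its log2FC was -3.76 (adjusted p = 0.00011 by edgeR). The DESeq2 adjusted p of Trim28, described above, was 0.063, and its log2FC of 1.04 was 1.63 without replicate 1 (adjusted p = 6.8e-07 by edgeR).

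No named transcript was a DEG in edgeR, so none was named for its size of change. The following genes were chosen after their values were seen, for the smallest p among named transcripts with one direction in all 3 pairs. On the lower side, Pacsin1, an adaptor of synaptic endocytosis, was at 41.1, 28.9 and 25.4 CPM in Sham and 14.9, 8.42 and 8.17 in FT (log2FC -1.62, SE 0.19). Bcl2l1, an inhibitor of apoptosis, was at 61.8, 45.0 and 22.1 CPM in Sham and 20.5, 17.2 and 10.1 in FT (log2FC -1.38, SE 0.18). Camta2, a transcription activator, gave a log2FC of -1.35 (SE 0.17). On the higher side, Zfp280b, a zinc finger gene, was at 14.7, 70.1 and 63.8 CPM in Sham and 38.5, 334 and 232 in FT (log2FC 1.84, SE 0.20). Agpat5, an acyltransferase of lipid synthesis, was at 57.3, 196 and 188 CPM in Sham and 143, 999 and 665 in FT (log2FC 1.83, SE 0.24). For these higher genes, as for Mrpl51, Uba6, Vcl and Tsc22d2, replicate 1 had the lowest level of its group in both treatments, and the FT library of replicate 1 lay below the Sham libraries of replicates 4 and 5 except for Tsc22d2, where it lay between them.

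The cell types that a punch could hold were followed by the summed level of their markers, as CPM of each library's own total. Choroid plexus and ependymal markers summed to 674, 120 and 186 in Sham replicates 1, 4 and 5 and to 346, 324 and 785 in FT. They were lower in FT in pair 1 and higher in pairs 4 and 5, the directions that both lists of nuclear mitochondrial genes took, and their part in those results was not tested. Ttr made up most of the sum in the highest libraries, at 531 in Sham replicate 1 and 616 in FT replicate 5. In CPM after TMM scaling it was at 617, 8.92 and 54.7 in Sham and 253, 184 and 572 in FT (log2FC 2.42, SE 1.26, adjusted p = 0.486). Without replicate 1 its log2FC was 3.77 (adjusted p = 4e-08 by edgeR), and edgeR called 5 of the list higher and 1 lower. Of 14 such markers tested, with a median log2FC of 0.45, DESeq2 called 0. Igfbp2 had the smallest p of the list (log2FC 0.44, SE 0.23, adjusted p = 0.477), and was called without replicate 1 (0.75, adjusted p = 0.000954 by edgeR). Between 0 and 1 of its 16 members were at 0 in a library.

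Oligodendrocyte markers summed to 2202, 3338 and 3291 in Sham and to 2717, 2686 and 2872 in FT, led by Ermn, and DESeq2 called 0 of 14 (median log2FC 0.13). Olig2, which specifies the lineage, gave a log2FC of 0.75 (SE 0.27, adjusted p = 0.341) and Evi2a one of 0.36 (SE 0.15, adjusted p = 0.403), both without overlap. Another 6 of the 14 had a log2FC below 0. Ermn, a cytoskeletal protein of these cells, was at 294, 554 and 661 CPM in Sham and 488, 410 and 416 in FT, higher in pair 1 and lower in the others (log2FC -0.13, SE 0.30, adjusted p = 0.896). Without replicate 1, edgeR called 3 of the list higher and 4 lower. Astrocyte markers summed to 2776, 1619 and 1424 in Sham and 1796, 1639 and 1570 in FT, led by Agt, and 0 of 12 were called (median -0.07). Slc7a10, an astrocytic amino acid exchanger, did not overlap between groups, with 77.2, 74.6 and 74.3 CPM in Sham and 91.3, 104 and 111 in FT (log2FC 0.43, SE 0.15, adjusted p = 0.323). Paqr6, of the same list, gave -1.30 (SE 0.67, adjusted p = 0.479), and -2.43 without replicate 1 (adjusted p = 0.0002 by edgeR).

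Microglia markers summed to 180, 153 and 151 in Sham and 183, 215 and 221 in FT, with a median log2FC of -0.10 over 9. Mpeg1, a pore-forming protein of macrophages, gave a log2FC of -1.21 (SE 0.43, adjusted p = 0.336). Vascular and blood markers summed to 593, 468 and 453 in Sham and 360, 475 and 490 in FT, led by the haemoglobin gene Hbb, and DESeq2 called 0 of 12 (median -0.23). Myl9, of vessel muscle, gave -0.62 (SE 0.23, adjusted p = 0.358) and Higd1b, of pericytes, 0.51 (SE 0.25, adjusted p = 0.451), or 0.81 without replicate 1 (adjusted p = 0.0028 by edgeR). Cerebellar granule cell markers summed to 592, 279 and 297 in Sham and 403, 319 and 359 in FT, most of it Pvalb, which is not particular to these cells (median log2FC -0.58 over 5 tested). Cbln1 gave -0.58 (SE 0.18, adjusted p = 0.297) and Grm4 -0.87 (SE 0.54, adjusted p = 0.553), while Gabra6 gave 0.45 (SE 0.41, adjusted p = 0.703) and Pvalb 0.09 (SE 0.23, adjusted p = 0.914). The log2FC of Grm4 in edgeR was -0.33 without replicate 1 and -1.52 without replicate 5. The pair medians of this list were -0.53, -0.60 and 0.34, with 4 of 5 higher in pair 5, where named transcripts had a median of 0.28. Cholinergic and motor neuron markers summed to 1270, 1144 and 1127 in Sham and 864, 1007 and 814 in FT, nearly all Nefh (median -0.42 over 3 tested), and Chrm1, a muscarinic receptor, was at 0 in 5 of the 6 libraries. All FT libraries of Nefh lay below all Sham libraries, at 839, 903 and 700 against 1369, 970 and 948 CPM (log2FC -0.42, SE 0.19, adjusted p = 0.428), and Chrnb2, a nicotinic receptor subunit, gave -2.08 (SE 0.66, adjusted p = 0.306). Slc5a7, the third member tested, was at 103, 59.1 and 74.7 CPM in Sham and 162, 90.3 and 54.9 in FT, higher in pairs 1 and 4 and lower in pair 5 (log2FC 0.28, SE 0.25, adjusted p = 0.7).

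**Figure D5:**
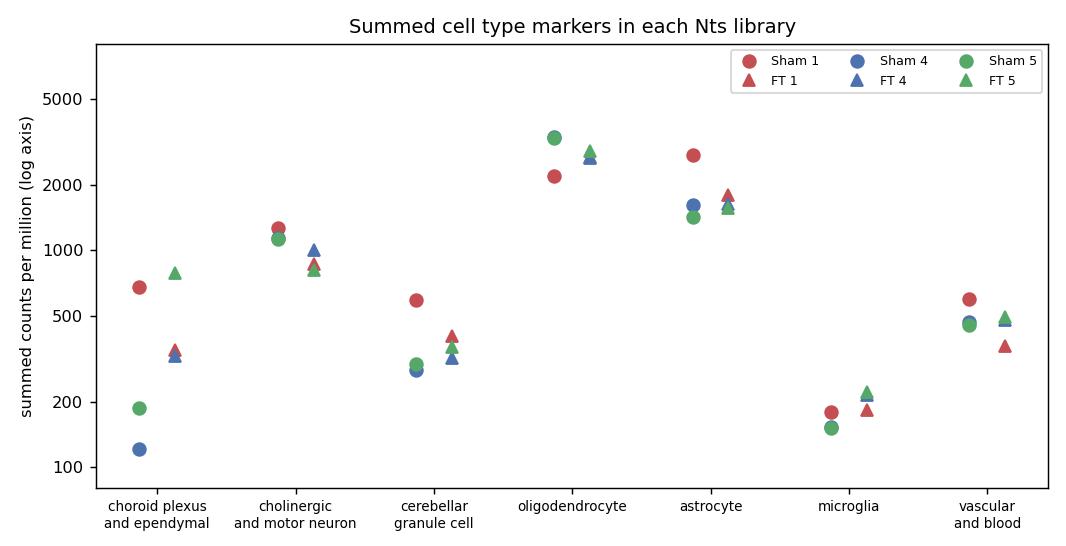
Summed markers of 7 cell type lists (CPM of the library total, log axis) in each Nts library, with circles for Sham, triangles for FT and one colour per replicate. Choroid plexus and ependymal markers vary most, from 120 in Sham replicate 4 to 785 in FT replicate 5.

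The last question was whether the response of Nts differed from that of the LC and the raphe, the other brainstem nuclei with monoamine neurons. In joint edgeR fits of the interaction, 0 of 13978 transcripts differed from the LC (0%), with 104 at an unadjusted p under 0.05 (0.744%), and 0 of 13870 from the raphe (0%), with 208 (1.5%). DESeq2 also called 0 in both, with 89 and 206 at an unadjusted p under 0.05. These tests do not show that the regions respond alike. Against the raphe, edgeR called 2 transcripts without replicate 1.

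The 3 named transcripts with the smallest p in each direction are given as values. Against the LC, Tmem65, a mitochondrial inner membrane protein, had a log2FC of 1.81 in Nts and 2.83 in the LC (difference -1.02, SE 0.43). Atp8b3 had 0.62 and 1.31 (difference -0.70, SE 0.27), and Stxbp3, a binding partner of syntaxin, 0.67 and 1.249 (difference -0.58, SE 0.24). Il16 had 0.72 in Nts and -1.253 in the LC (difference 1.98, SE 0.68). In Nts it went from 1.49 to 6.10 CPM in pair 1, from 4.22 to 2.50 in pair 4 and from 2.39 to 4.17 in pair 5, and its log2FC was 0.09 without replicate 1. Odf3b had 0.27 and -0.98 (difference 1.248, SE 0.49). The peptide gene Rln3 held between 0 and 15 counts in Nts libraries, and its difference was 2.06 (SE 0.81). Each of these 6 had an adjusted p of 1.

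Against the raphe, Th had a log2FC of -0.04 in Nts and -1.64 in the raphe (difference 1.61, SE 0.49). In the raphe, Sham replicate 1 held 244 CPM of Th and the other Sham libraries 3.29 and 7.45. Igfbp5, a binding protein of insulin-like growth factors, was lower in each Nts pair, at 63.3, 27.3 and 26.1 CPM in Sham and 35.1, 18.4 and 18.5 in FT, and higher in each raphe pair, at 104, 59.3 and 60.3 in Sham and 118, 60.8 and 111 in FT (difference -1.02, SE 0.28). Gal had a log2FC of -0.02 in Nts and 0.97 in the raphe (difference -0.99, SE 0.29). Snx8, a sorting nexin, had -0.05 and 0.94 (difference -0.99, SE 0.28), and Ednrb, an endothelin receptor, 0.16 and -0.76 (difference 0.92, SE 0.30). Sostdc1 held between 3 and 30 counts in Nts libraries (difference 3.99, SE 1.22). All 6 had an adjusted p of 0.9999.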

How the data were processed

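RNA of pooled punches was sequenced as 76 bp read pairs. The authors deposited raw counts per Ensembl transcript (29188 in each file), with STAR, HTSeq and the rn5 build per the labels, and no normalization. The labels name polyA RNA and a total RNA kit. The study's supplementary methods give total RNA as the input and a TruSeq Stranded Total RNA kit. Per the labels the kit keeps strand. Whether counting used it is not given in the sources used here. The closing summary lines of each file stayed out of totals. Counts alone limit precision for low transcripts.

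Samples were grouped by labelled region and treatment. FT and Sham tissue with one replicate number was processed in parallel by the study, which also entered those numbers as batches, so equal numbers were paired. Deviations from the group means of equally numbered samples correlated at r = 0.55, 0.28 and 0.56 for replicates 1, 4 and 5. Unequal numbers gave -0.56 to 0.39, where FT 5 with Sham 4 (0.39) exceeded FT 4 with Sham 4, so the pairing rests on the parallel processing.

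The fit used edgeR 4.0.16 in R 4.3.3, with TMM, filterByExpr (minimum count 10, total 15), the replicate block and the quasi-likelihood test. SE was taken as the size of the log2FC over the root of its F statistic. DESeq2 1.42.0 was the alternative. Log2 ratios of pairs used CPM with a prior count of 2. Steps were tested on simulated data. For FT against Sham in Nts, edgeR called 20 unchanged transcripts and DESeq2 36. Of 100 transcripts changed by a log2 of 1.5, edgeR called 70 and DESeq2 77. Of 100 changed by 2, they called 82 and 85. DESeq2 thus made more false calls there, a limit on its calls above. Names came from the supplementary table of transcripts the study called in several regions (1989 listed, 1844 with a usable name). Its values were not used. Transcripts without a name, their coordinates and sequences were not analysed here, and 1 gene the rule names is not reported here. Members and gene lists were chosen with earlier results of these data known. Genes named are the 2 members with the smallest p of each list, listed hindbrain, serotonin and catecholamine markers, 5 genes fixed by name and the 3 smallest p of each direction in each interaction. Further genes of a list (its most abundant member, Scn4b, Dbp, Fos, Kcnab3, Cga and markers of the Sham comparison) and those stated in the text were chosen after their values were seen. Python 3.11.15, pandas 2.3.3 and matplotlib 3.10.9 made summaries and figures. Alternatives were DESeq2, no block, median-ratio size factors, no low-count filter, each replicate left out, all 8 libraries, a stricter adjusted p of 0.05 and a joint fit of 3 regions. DESeq2 without each replicate and on all 8 libraries was added after seeing the data.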

Additional observations from a re-analysis of the deposited data

Results flagged for a closer look

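Igfbp5 was lower in FT in all 3 Nts pairs and higher in all 3 raphe pairs, with a log2FC of -0.67 in Nts and 0.34 in the raphe. The interaction in edgeR was -1.02 (SE 0.28, adjusted p = 0.9999), so the difference missed the threshold over all transcripts, and in raphe pair 4 the levels were 59.3 and 60.8 CPM. Groups of 3 samples were not tested for single outlying samples.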

How the results depend on the processing

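The number of DEGs, 0 in the edgeR fit, stayed 0 with median-ratio size factors and at an adjusted p of 0.05. It was 395 with DESeq2, 284 without the low-count filter, 511 with all 8 libraries and 12 in the joint fit of 3 regions. Leaving out a replicate gave 0 to 4337 in edgeR, the highest without replicate 1, and 18, 48 and 1809 in DESeq2 without replicates 4, 5 and 1, where 2 pairs remain and 2732, 2589 and 11754 transcripts had an adjusted p. DESeq2 with all 8 libraries called 647. Without the replicate block, pairing ignored, edgeR called 0 DEGs, with 827 transcripts at an unadjusted p under 0.05 against 1674. The interactions with the LC gave 0 in each alternative, and those with the raphe gave 3 without the low-count filter, 0 to 2 with a replicate left out and 0 otherwise. For Nts against the LC in Sham, no replicate block gave 141 calls (8 higher and 133 lower) against 926, and leaving out a replicate 271 to 1729. Against the raphe, 68 calls became 8 without the block, 184 with DESeq2, 249 without the filter and 15 to 159 with a replicate left out. Among the 20% of transcripts with the most counts, r was 0.85 between pairs 4 and 5 and 0.0804 between pairs 1 and 4. The cause of these shifts was not tested. Of 83 genes named in the text or listed with them, 79 to 83 kept the direction of the edgeR fit in each alternative, and no called value turned its sign. Many of these genes were picked for a small p in that fit, some also for one direction in all 3 pairs. The alternatives reuse the same libraries, so the kept directions are not independent evidence. Counts of a few reads, as in Htr1a, limit what can be seen at this depth.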
